A study of Mus musculus with 8 samples.

Results

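Liver sinusoidal endothelial cells line the smallest vessels of the liver, and 10 genes known from these cells were followed here: Stab1, Stab2, Lyve1, Clec4g, Pecam1, Kdr, Oit3, Fcgr2b, Mrc1 and Gpr182. They were taken by name from what is known of these cells, at a time when earlier results of these data were known. They are 10 of the 56884 genes in the deposited count tables. RNA was measured by 3′-enriched sequencing in whole liver of C57BL/6J female mice made obese by a high-fat diet. The diet, with 45% of its energy from lipid, was given from 2 months of age, and the mice were kept until 18 months. The DIO group (diet-induced obese, 3 mice) stayed on that diet. In the DIO + DHA group (5 mice), 15% of its lipid by weight was replaced by a fish-oil concentrate after 4 months. The concentrate was rich in docosahexaenoic acid and held some eicosapentaenoic acid. Both diets carried the same tocopherol mixture, every mouse was fasted overnight, and each library came from 1 mouse. The libraries were labelled as 1 batch. By design, the 2 groups differ in the source of dietary lipid, and they share strain, sex, age and obesity. All 5 DIO + DHA libraries also held transcripts of skeletal muscle and squamous epithelium at levels far above those of DIO. The diet and RNA from such tissue therefore cannot be told apart.

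Sinusoidal endothelium has open pores and no complete basement membrane, and it clears waste molecules from portal blood by receptor-mediated endocytosis. Its scavenger receptors include the stabilins, the mannose receptor and an Fc receptor for immune complexes, and it also carries hyaluronan-binding and lectin receptors that most capillaries lack. In chronic liver injury these cells can lose their pores and take on features of ordinary capillaries, a change called capillarization. Pecam1 and Kdr are carried by endothelial cells of most organs, and the other 8 genes are more typical of the sinusoid, although Lyve1, Mrc1, Fcgr2b and Stab1 are also read in macrophages. In whole liver, fewer cells of a type and less RNA per cell cannot be told apart.

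The promoter sequences show what lies just upstream of members that fell and of members that did not. RefSeq promoters of build GRCm38.p6 were found for 6 of the 10 genes, namely Stab1, Stab2, Clec4g, Kdr, Fcgr2b and Mrc1, and none was found for Lyve1, Pecam1, Oit3 or Gpr182. The 250 bases before the start are printed for Clec4g (chr8:3720652-3720901, minus strand) and Mrc1 (chr2:14229164-14229413, plus strand), which were lower in DIO + DHA, and for Stab2 (chr10:87007943-87008192, minus strand) and Kdr (chr5:75978456-75978705, minus strand), which did not pass the test. Capitals mark the motifs that were searched on both strands.
Clec4g: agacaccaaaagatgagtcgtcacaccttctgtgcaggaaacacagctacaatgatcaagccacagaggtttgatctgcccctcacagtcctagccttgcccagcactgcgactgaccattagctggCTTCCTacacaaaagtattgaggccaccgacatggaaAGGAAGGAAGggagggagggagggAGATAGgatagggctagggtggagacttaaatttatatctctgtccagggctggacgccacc
Mrc1: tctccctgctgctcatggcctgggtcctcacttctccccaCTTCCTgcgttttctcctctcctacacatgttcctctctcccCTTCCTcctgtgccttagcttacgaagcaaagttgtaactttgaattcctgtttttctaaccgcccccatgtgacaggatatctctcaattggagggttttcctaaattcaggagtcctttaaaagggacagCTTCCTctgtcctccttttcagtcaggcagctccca
Stab2: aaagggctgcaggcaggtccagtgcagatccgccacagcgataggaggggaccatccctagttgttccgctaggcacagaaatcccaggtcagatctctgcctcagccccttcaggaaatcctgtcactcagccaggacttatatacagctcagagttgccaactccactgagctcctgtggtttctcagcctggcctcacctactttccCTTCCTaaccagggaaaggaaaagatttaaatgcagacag
Kdr: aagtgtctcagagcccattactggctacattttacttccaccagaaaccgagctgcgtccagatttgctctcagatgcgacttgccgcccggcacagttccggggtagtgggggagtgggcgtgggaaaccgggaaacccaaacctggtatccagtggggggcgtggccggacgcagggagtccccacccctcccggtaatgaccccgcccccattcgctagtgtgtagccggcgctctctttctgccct
For GATA factors, of which Gata4 is a regulator of sinusoidal endothelium, the motifs were AGATAA or its form AGATAG, with TGATAA or its form TGATAG. For ETS factors, which act in all endothelium, they were AGGAAG or else CGGAAG. At least 1 GATA word stood in 26.5%, and at least 1 ETS word in 39.2%, of the 32851 promoters of this length. Clec4g held 1 GATA word and 3 ETS words, and 2 of the latter overlap in the run of capitals before its GATA word. Mrc1 held 3 ETS words and Stab2 1, with no GATA word in either. Stab1, not printed, held 2 ETS words and no GATA word. Kdr and Fcgr2b held neither. A match is a run of letters, and factor binding was not measured.

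All 10 genes passed the filter on low counts, with raw counts from 9 (Pecam1) to 450 (Clec4g) in a library. Of the 10, 3 were lower in DIO + DHA by edgeR's quasi-likelihood test (Lyve1, Clec4g and Mrc1), 0 were higher, and 7 did not pass an adjusted p of 0.05. Over all 12412 genes tested, 7.28% were called lower and 7.89% higher. With unadjusted p under 0.05, 5 members were lower and 0 higher, Stab2 and Oit3 being the additional ones, where 12.2% of all genes tested were lower and 13.0% higher at that threshold. No tool or setting tried called a member higher. The median log2 fold change of the members was -0.35, where the median of all genes tested was 0.00, and 8 of the 10 had a negative value. Levels below are TMM-scaled CPM, a library's counts relative to its scaled total. They are not divided by gene length, so that they are compared between libraries for 1 gene and not between genes.

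Lyve1, a receptor for hyaluronan that marks sinusoidal and lymphatic endothelium, had the largest fold change of the 10. It lies on chromosome 7 (GRCm39, 110449814 to 110462446, minus strand) and shares no exon base with another gene. The DIO libraries held 27.6, 27.2 and 23.2 CPM, and the DIO + DHA libraries held 11.9, 15.1, 6.78, 12.9 and 13.1 CPM. Each DIO + DHA library lay below each DIO library, with replicate 4 the lowest. The log2 fold change was -1.08 (SE 0.16, 95% interval -1.40 to -0.77, adjusted p = 2.7e-07), a level lower by 52.9%. Under the 18 alternative analyses the log2 fold change lay between -1.27 and -0.98 and the call was kept each time. The spread among DIO + DHA mice was a coefficient of variation of 26.05%, where counting alone would give 15.9% at this depth.

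Clec4g encodes a C-type lectin, also called LSECtin, that binds glycans at the sinusoidal surface, and it had the highest raw counts of the members. The gene is on chromosome 8 (3757064 to 3770651, minus strand), and Gm16553 on the other strand covers 5.93% of its exon bases. Its level was 76.5, 62.0 and 79.9 CPM in DIO and 45.8, 45.9, 54.2, 43.1 and 52.2 CPM in DIO + DHA. The groups did not overlap. The log2 fold change of -0.59 (SE 0.10, 95% interval -0.79 to -0.39) passed the test at an adjusted p of 7.5e-06, and the fold change ranged from -0.70 to -0.48 over the alternatives, which all kept the call.

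Mrc1 is the mannose receptor, which takes up mannose-bearing glycoproteins and collagen chains and is shared with macrophages. It lies on chromosome 2 (14234203 to 14336868, plus strand) and overlaps no other exon. The DIO libraries were close together at 16.3, 16.4 and 15.8 CPM, and the DIO + DHA libraries held 10.1, 14.1, 9.99, 11.7 and 11.1 CPM. All 5 DIO + DHA values lay below all 3 DIO values. The log2 fold change was -0.51 (SE 0.17, 95% interval -0.84 to -0.18, adjusted p = 0.0261). The DIO spread, a coefficient of variation of 2.05%, was smaller than the 13.7% that counting alone would give. The call was lost with DESeq2 (adjusted p = 0.0990), under limma-voom's log odds, and when DIO replicate 4 (adjusted p = 0.120), DIO replicate 5 (0.0837) or DIO + DHA replicate 1 (0.0747) was left out.

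These 3 genes were also the members whose groups did not overlap, all with DIO + DHA below. Over all genes tested 8.88% separated in that direction and 9.54% in the other, and 0 members did so in the other. Lyve1 and Mrc1 are also expressed by macrophages, and the summed level of 15 Kupffer cell markers, the resident macrophages, moved with them from 915 to 1016 CPM in DIO to 534 to 563 CPM in DIO + DHA. Of the 14 markers tested, 11 were lower, 1 (Marco) was higher, and Cd163 and Timd4 did not pass the test. Over all genes tested, 7.28% were called lower and 7.89% higher. The part of macrophage RNA in the Lyve1 and Mrc1 values was not tested. Lymphatic endothelium also carries Lyve1, and of 6 lymphatic markers 4 were tested, with 1 higher and 0 lower. Pdpn and Mmrn1 had 7 and 0 counts over all libraries. Ccl21a had 2 counts in DIO and 33 in DIO + DHA, and passed the filter only through DIO + DHA. The part of lymphatic RNA in the Lyve1 values was not tested.

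**Figure D1:**
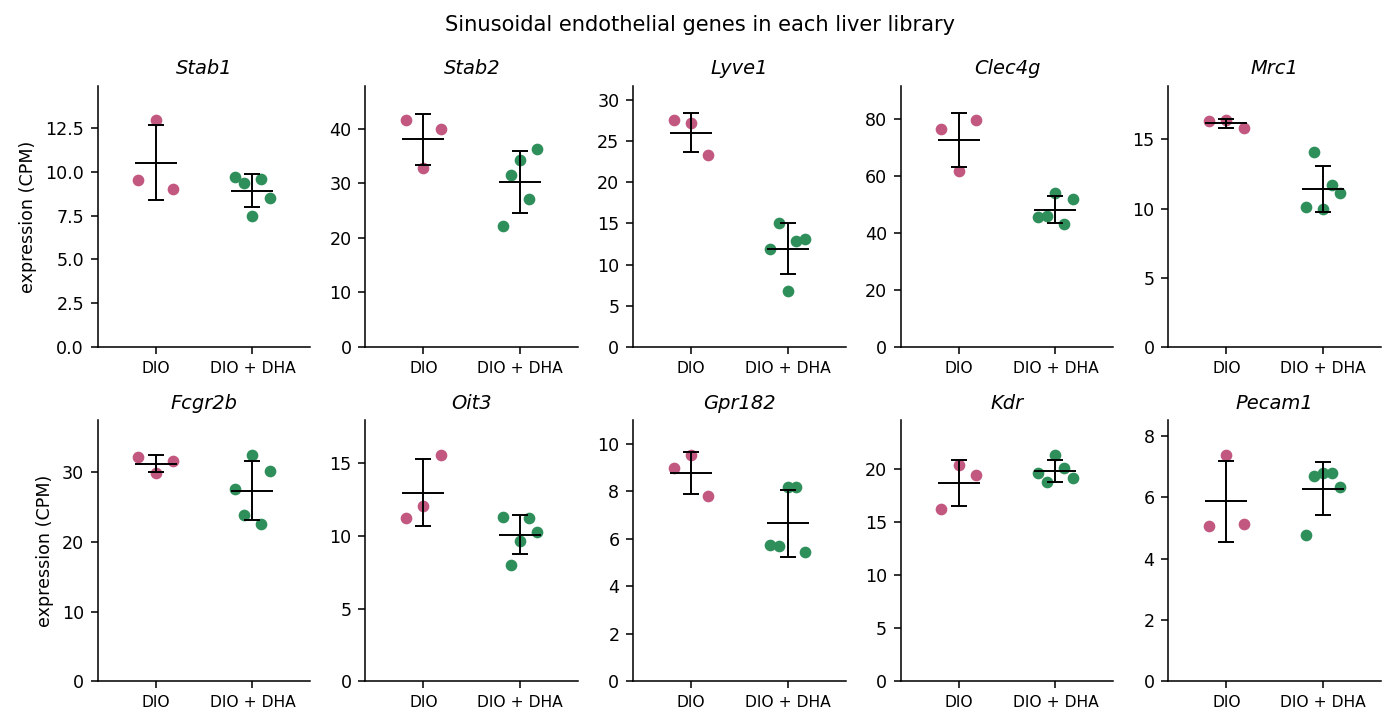
Levels of the 10 sinusoidal endothelial genes in CPM (vertical axes, from 0) in each DIO and DIO + DHA library, points being libraries and bars the group mean and SD. Lyve1, Clec4g and Mrc1 separate by group, Kdr and Pecam1 lie at similar levels in both, and the other 5 overlap.

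The stabilins are large scavenger receptors of the sinusoid, and Stab2 is its main receptor for circulating hyaluronan. Stab2 lies on chromosome 10 (86677062 to 86843889, minus strand) and held 41.6, 32.8 and 39.9 CPM in DIO against 22.2, 31.5, 34.3, 27.2 and 36.3 CPM in DIO + DHA. DIO replicate 4 lay within the DIO + DHA range. The log2 fold change was -0.32 (SE 0.13, 95% interval -0.58 to -0.06) with an adjusted p of 0.0848 by edgeR. Without DIO replicate 4 or DIO + DHA replicate 6 it passed the test (adjusted p = 0.0491 and 0.0156). Without any other single library it did not (adjusted p up to 0.373, without DIO replicate 5), nor with DESeq2 (0.230). It was called in 3 of 18 alternatives. Stab1, on chromosome 14 (30860970 to 30890598, minus strand), takes up modified lipoproteins and matrix fragments. It held 9.56, 13.0 and 9.05 CPM in DIO and 9.72, 9.38, 7.49, 9.60 and 8.52 CPM in DIO + DHA, with overlapping groups. Its log2 fold change was -0.25 (95% interval -0.64 to 0.13, adjusted p = 0.455).

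Fcgr2b encodes the inhibitory Fc receptor that removes small immune complexes from blood, and it is read in B cells and macrophages too. It lies on chromosome 1 (170786186 to 170804116, minus strand). The level was 32.1, 29.8 and 31.6 CPM in DIO and 27.6, 23.8, 32.5, 22.5 and 30.1 CPM in DIO + DHA, so that DIO + DHA replicates 4 and 6 reached the DIO range. The log2 fold change was -0.19 (95% interval -0.44 to 0.07, adjusted p = 0.387). The summed Kupffer cell markers given above moved with the diet, and the part of macrophages and B cells in the Fcgr2b level was not tested.

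Oit3 encodes a secreted zona pellucida domain protein, and Gpr182 an atypical chemokine receptor of endothelium that binds chemokines without known signalling. Oit3 (chromosome 10, 59258780 to 59277600, minus strand) held 11.3, 12.1 and 15.6 CPM in DIO and 11.3, 8.04, 9.63, 11.2 and 10.3 CPM in DIO + DHA. Gpr182 (chromosome 10, 127583145 to 127587601, minus strand) held 9.0, 9.56 and 7.81 CPM in DIO and 5.75, 5.70, 8.21, 8.20 and 5.46 CPM in DIO + DHA. The groups overlapped for both genes. The log2 fold changes were -0.38 for Oit3 (95% interval -0.74 to -0.02, adjusted p = 0.160) and -0.41 for Gpr182 (95% interval -0.84 to 0.03, adjusted p = 0.239). Raw counts of Gpr182 were 16 to 53 a library, and its interval still holds differences as large as that of Clec4g.

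Kdr and Pecam1, which are not particular to the sinusoid, had log2 fold changes near 0. Kdr is the main VEGF receptor of endothelium and lies on chromosome 5 (76093487 to 76139118, minus strand). It held 16.3, 20.4 and 19.5 CPM in DIO and 19.6, 18.8, 21.4, 20.1 and 19.2 CPM in DIO + DHA, and all but DIO replicate 1 fell in a narrow band. The log2 fold change was 0.04 (SE 0.14, 95% interval -0.24 to 0.32, adjusted p = 0.910). Pecam1, an adhesion molecule of endothelial junctions that platelets and leukocytes carry too, lies on chromosome 11 (106545043 to 106641454, minus strand). Its level was 5.06, 7.39 and 5.15 CPM in DIO and 4.76, 6.70, 6.78, 6.79 and 6.33 CPM in DIO + DHA. The groups overlapped, and with 9 to 41 raw counts a library the interval was wide (log2 fold change 0.03, 95% interval -0.45 to 0.51, adjusted p = 0.958). Summed over the 10 genes the level was 231 to 248 CPM in DIO and 169 to 193 CPM in DIO + DHA, a ratio of group means of 0.751.

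Members were next set against each other within a library, as the log2 ratio of each of the other 9 to Stab2, which asks whether they differed between the diets by unequal amounts. The ratios were tested by exact permutation (two-sided, 56 ways to place 3 of 8 libraries in DIO). After adjustment for 9 ratios 0 of 9 passed, and with all 8 libraries 0 had an unadjusted p under 0.05. The smallest p this design can give is 0.0179. After adjustment for 9 ratios that p does not pass for 1 ratio alone, so the adjusted test could not call Lyve1 by itself. The ratio of Lyve1 to Stab2 was -0.59, -0.27 and -0.78 in DIO and -0.90, -1.06, -2.34, -1.08 and -1.47 in DIO + DHA, with each DIO + DHA value below each DIO value. The difference of means was -0.82 (exact p = 0.0536, adjusted p = 0.321). Kdr and Pecam1 lay on the other side, with differences of 0.43 (exact p = 0.107) and 0.45 (exact p = 0.125). The ratio of Clec4g differed by -0.24 (exact p = 0.143), and those of Stab1, Oit3, Fcgr2b, Mrc1 and Gpr182 by -0.17 to 0.14. Single libraries moved several of these differences. Without DIO replicate 1 those of Kdr and Pecam1 were 0.27 and 0.29, and without DIO replicate 4 that of Pecam1 was 0.74 (exact p = 0.0476, the smallest that 2 against 5 libraries allow). Without DIO + DHA replicate 4 the difference of Lyve1 was -0.58, and without DIO + DHA replicate 1 that of Clec4g was -0.33, each at an exact p of 0.0286, the smallest that 3 against 4 allow. The smallest adjusted p in any of these was 0.257. At this number of mice, unequal changes within the set did not pass the adjusted test, which does not show that the members moved alike.

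**Figure D2:**
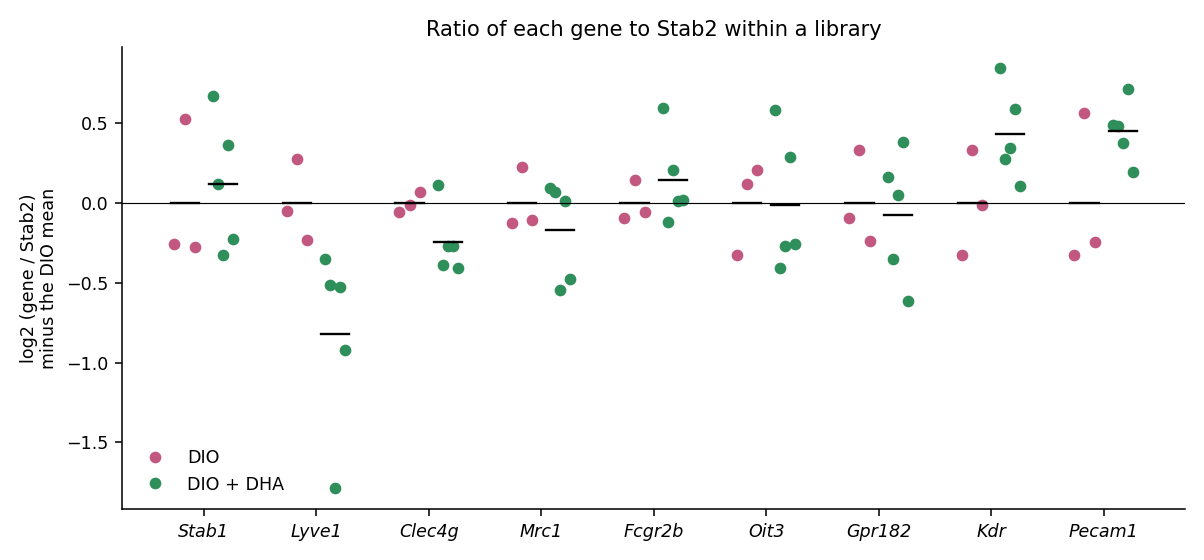
Log2 ratio of each other member to Stab2 within a library, less its DIO mean (vertical axis, log2 units, genes along the horizontal axis), points being DIO and DIO + DHA libraries and short bars the group means. Lyve1 separates with DIO + DHA below (difference of means -0.82), and Kdr and Pecam1 have DIO + DHA means above 0 (0.43 and 0.45).

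A wider list of 17 other genes of sinusoidal endothelium was read next, of which 15 could be tested and Bmp6 and Wnt9b were too low. Of the 15, 5 were lower and 0 higher by the adjusted p, against 7.28% of all genes called lower. Kit, among the 5, passed the filter only through DIO, the group where it was higher. At unadjusted p under 0.05, 8 were lower and 0 higher, against 12.2% and 13.0% of all genes. The median log2 fold change was -0.41, against 0.00 over all genes. DESeq2 called 4 of them lower and limma-voom 5, and both called 0 higher. Ehd3, an ATPase of endocytic recycling, held 52.9, 54.1 and 49.9 CPM in DIO and 36.5, 38.9, 36.0, 33.02 and 42.4 CPM in DIO + DHA. Its groups did not overlap, and the log2 fold change of -0.48 (SE 0.10, adjusted p = 0.00046) was called under all 18 alternatives. Nrp1, a co-receptor for VEGF and semaphorins, fell by 0.44 on the log2 scale (48.6 ± 1.1 against 35.6 ± 4.4 CPM, SD, n = 3 and 5, adjusted p = 0.0021 by edgeR). Aqp1, a water channel that bile duct cells also carry, had a log2 fold change of -0.42 (65.0 ± 9.0 against 48.9 ± 4.6 CPM), and its call was lost without DIO replicate 5 (adjusted p = 0.125). Dnase1l3, a nuclease that digests DNA of dying cells, had a log2 fold change of -0.47 (34.8 ± 9.8 against 23.6 ± 1.0 CPM). DIO replicate 1 held 46.1 CPM where the other DIO libraries held 29.6 and 28.7, and without it the call was lost (adjusted p = 0.140). Kit, the receptor for stem cell factor, was scarce at 2.25, 3.07 and 2.13 CPM in DIO and 1.59, 0.670, 0, 1.17 and 0.655 CPM in DIO + DHA. Its log2 fold change was -1.46 (adjusted p = 0.0257) and was not called without DIO replicate 4 (adjusted p = 0.211), DIO + DHA replicate 4 or DIO + DHA replicate 6.

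The 10 genes that were not called included the transcription factor genes Gata4 (log2 fold change 0.25, adjusted p = 0.619) and Maf (-0.18, 0.399), and the secreted Wnt2 (-0.60, 0.0956), Rspo3 (0.09, 0.884) and Bmp2 (-0.24, 0.427), which signal from the sinusoid to hepatocytes. Flt4, the receptor for VEGF-C, had a log2 fold change of -0.41 (adjusted p = 0.0843), and Thbd, which curbs clotting, of -0.84 (adjusted p = 0.0560). The list's summed level was 305 to 324 CPM in DIO and 224 to 247 CPM in DIO + DHA.

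Genes of endothelium in general gave other counts. Of 28 such genes, none of them a member, all 28 were tested and 0 were called in either direction by edgeR, by DESeq2 or by limma-voom, and at unadjusted p under 0.05 there were 1 lower and 0 higher, against 12.2% and 13.0% of all genes tested. The median log2 fold change was -0.07. The 3 with the highest levels were Egfl7, a secreted protein of vessels (log2 fold change 0.13, adjusted p = 0.581), the phosphatase Ptprb (-0.15, 0.553) and the adhesion receptor Adgrf5 (-0.24, 0.316). The summed level of all 28 genes was 232 to 237 CPM in DIO and 210 to 237 CPM in DIO + DHA, ranges that overlap. The difference between this list and the sinusoidal genes was not tested.

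**Figure D3:**
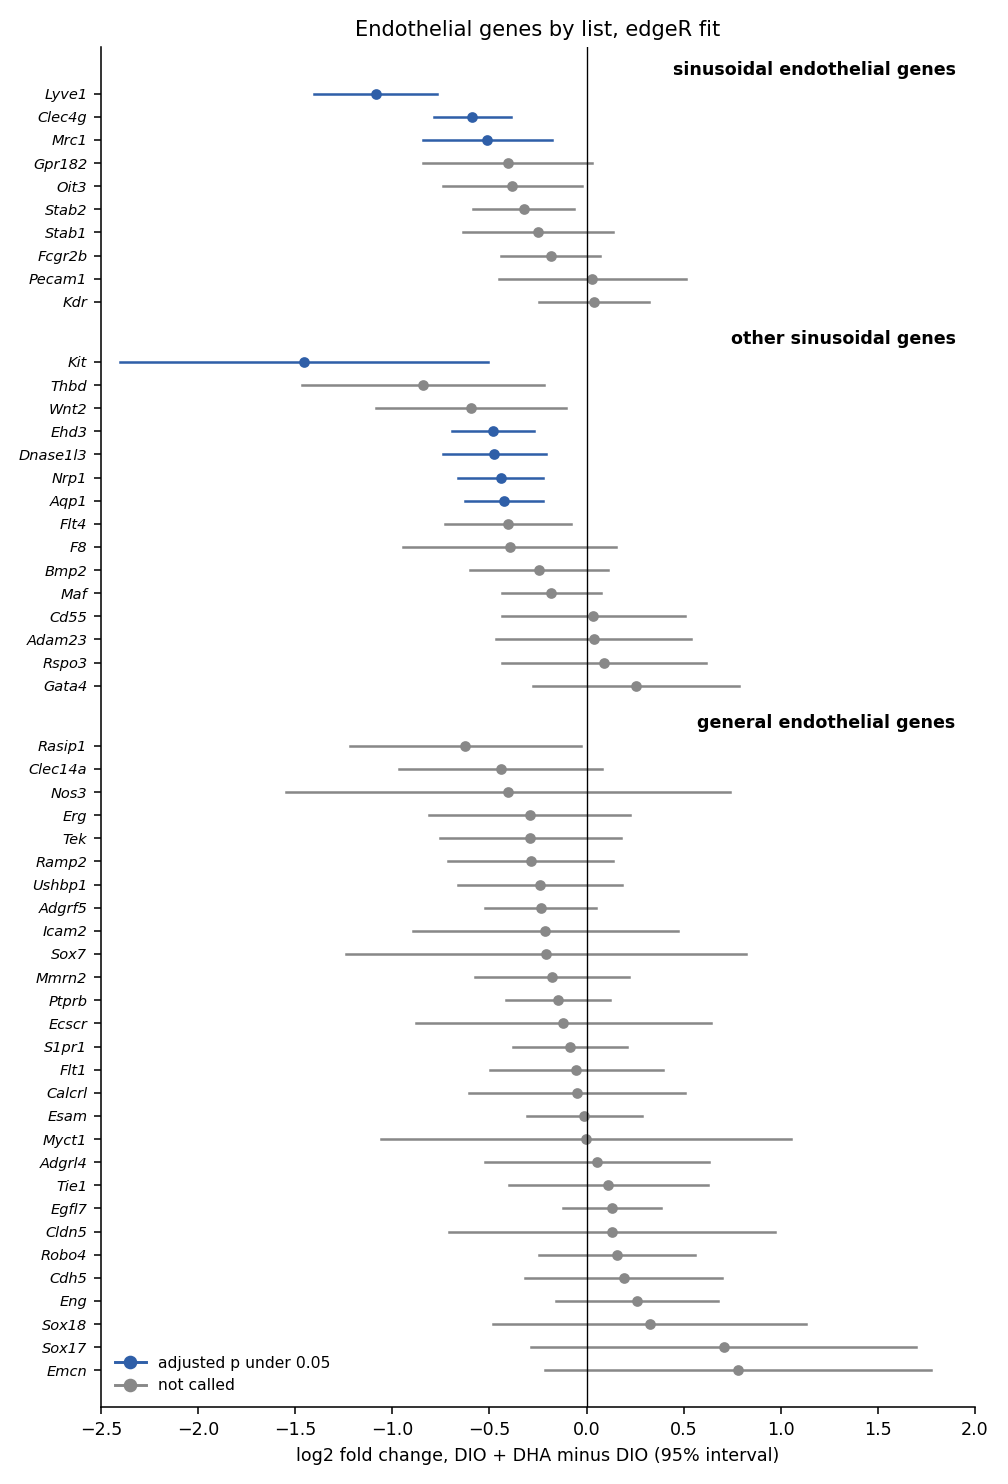
Log2 fold change (DIO + DHA minus DIO, horizontal axis) of the members, other sinusoidal genes and general endothelial genes, points being the edgeR estimate and lines its 95% interval, in blue where the adjusted p was under 0.05. The blue points, 3 of 10 members and 5 of 15 other sinusoidal genes, all lie left of 0, and 0 of 28 general endothelial genes is blue. Many general endothelial genes are scarce and have wide intervals.

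The endothelium of skeletal muscle is a second possible source of the general endothelial reads, since muscle transcripts were present in the DIO + DHA libraries. All 15 skeletal muscle markers were higher there, with a summed level of 33.7 to 37.7 CPM in DIO and 1327 to 1414 CPM in DIO + DHA. Squamous epithelium markers moved with them, from 0.563 to 0.902 CPM in DIO to 72.4 to 82.5 CPM in DIO + DHA, and 4 of 10 could be tested. All 5 DIO + DHA libraries held these transcripts, so that endothelium from such tissue and the diet cannot be told apart in Kdr, Pecam1 and the general list. Of 10 markers of non-sinusoidal vessels, Meox2, Tcf15 and Aqp7, which mark capillaries of muscle and heart, had 1, 3 and 5 counts over all libraries, all of them in DIO + DHA. Rbp7 had 0 counts in DIO and 23 in DIO + DHA. The ratio was 5.05 if the DIO group is set at 3 counts, and no counting interval was computed for it. Gpihbp1, which anchors lipoprotein lipase on capillaries, was lower instead, at 76.6 ± 5.7 CPM in DIO and 53.5 ± 6.3 CPM in DIO + DHA (log2 fold change -0.52, adjusted p = 3.4e-05). Of the 6 tested, 2 were lower (Gpihbp1 and Ly6a) and 1 was higher (Ly6c1), against 7.28% and 7.89% of all genes tested. Ly6c1 passed the filter only through DIO + DHA, where it was higher. The 10 vessel markers summed to 118 to 124 CPM in DIO and 83.1 to 104 CPM in DIO + DHA. The ratio of group means was 0.766, and the groups did not overlap.

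**Figure D4:**
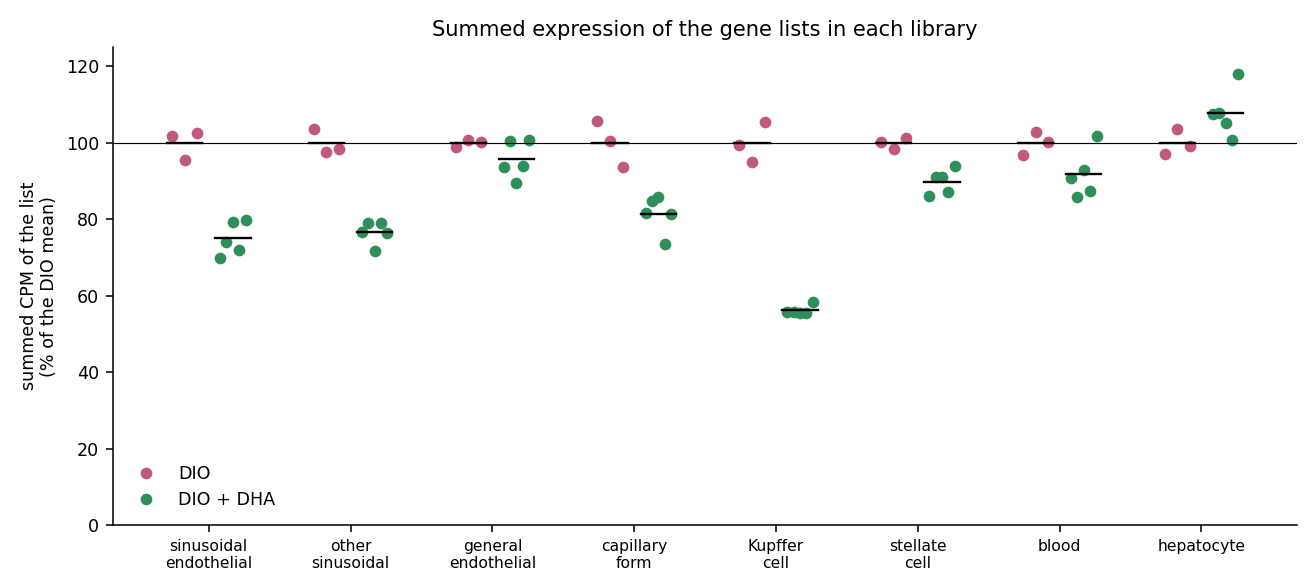
Summed CPM of each gene list in each library as a percentage of the DIO mean (vertical axis, from 0), points being DIO and DIO + DHA libraries and short bars the group means. In each DIO + DHA library, the 10 members (169 to 193 CPM against 231 to 248) and the other sinusoidal genes lie below DIO. So do the Kupffer cell markers, the stellate cell markers and the capillarization list. The general endothelial genes, blood markers and hepatocyte markers overlap.

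Genes linked to capillarization were called in both directions. Of 10, 9 were tested, 2 were lower and 2 higher, against 7.28% and 7.89% of all genes tested. The median log2 fold change was -0.20. The list's summed level was 107 to 120 CPM in DIO and 83.8 to 97.8 CPM in DIO + DHA. Plvap, the protein of pore diaphragms, held 39.9, 37.3 and 42.8 CPM in DIO and 33.1, 33.5, 36.4, 28.1 and 27.7 CPM in DIO + DHA (log2 fold change -0.35, adjusted p = 0.0302). Ly6a, a surface protein of many capillaries, had a log2 fold change of -0.42 (adjusted p = 0.0111). Leaving out DIO replicate 1 or 5 or DIO + DHA replicate 5 or 6 ended the call of Plvap (adjusted p up to 0.246), and leaving out DIO replicate 4 that of Ly6a (0.203). The 2 higher genes were scarce and passed the filter only through DIO + DHA, the group where they were higher. Cd34, which was not called, passed in the same way. The calls therefore give no direction for the list. Ly6c1 had 1 count in DIO and 47 in DIO + DHA, a ratio of 30.95 with a 95% counting interval of 5.29 to 1248. Cav1, of caveolae, rose from 0.732 ± 0.38 to 1.99 ± 0.81 CPM (adjusted p = 0.0402), a call lost without DIO replicate 4 (adjusted p = 0.250) or 5, or without DIO + DHA replicate 2, 4 or 6. Ly6c1 and Cav1 are also read in muscle capillaries, whose part was not tested. Vwf (log2 fold change -0.20), Cd34 (1.06) and the basement membrane genes Col4a1 (-0.45, adjusted p = 0.0507), Col4a2 (-0.36) and Lamb1 (0.16) did not pass the test.

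Around Kdr, 28 genes of the VEGF, angiopoietin, Notch and BMP pathways were read, of which 24 were tested. The counts were 3 higher and 2 lower of 24, against 7.89% and 7.28% of all genes tested, and the median log2 fold change was 0.01. The 3 that rose were Id1, Hes1 and Id3. Among other regulated genes of the list, Smad6, Klf2 and Klf4 did not pass the test, and Hey1 was too low to test. Pathway activity was not tested. Id1, which answers BMP signals, held 12.4, 14.8 and 14.6 CPM in DIO and 42.8, 33.5, 38.2, 30.7 and 36.3 CPM in DIO + DHA (log2 fold change 1.35, SE 0.14, adjusted p = 1.8e-11). Hes1, a target of Notch, held 23.6, 20.2 and 20.1 CPM in DIO and 45.8, 33.8, 37.8, 37.2 and 45.6 CPM in DIO + DHA (log2 fold change 0.96, adjusted p = 2.6e-08). Neither gene's groups overlapped, and both are expressed in hepatocytes as well. Id3 rose by 0.42 on the log2 scale. The 2 that fell were Nrp1 and Angpt2. Angpt2 had 25 counts in all and passed the filter only through DIO, the group where it was higher. Its call was kept without DIO + DHA replicate 4 and lost without any other single library. The ligand Vegfa was at 56.7 ± 5.6 and 48.1 ± 2.4 CPM (log2 fold change -0.22, adjusted p = 0.151), and the receptors Flt1 (-0.05), Tek (-0.29) and Tie1 (0.11) did not pass the test.

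Fcgr2b was compared with 7 other Fc receptor genes, of which 5 were tested and 4 were lower, against 7.28% of all genes tested. The median log2 fold change of the 5 was -0.94. The 4 encode activating receptors or their shared signalling chain, which are carried by macrophages and other myeloid cells. Fcgr3 held 21.9, 23.3 and 26.3 CPM in DIO and 7.74, 8.71, 7.85, 8.20 and 11.6 CPM in DIO + DHA (log2 fold change -1.44, SE 0.16, adjusted p = 2.1e-10). Fcgr4 (-0.94), Fcgr1 (-1.03) and Fcer1g (-0.73) were lower too, each without overlap of the groups. The call of Fcgr1 was lost with DESeq2 (adjusted p = 0.0569) and under limma-voom's log odds, and 3 of the list were then lower. Fcgrt, the neonatal receptor that recycles immunoglobulin G and is abundant in hepatocytes, had a log2 fold change of -0.01 (428 ± 15 against 426 ± 17 CPM, adjusted p = 0.963). These macrophage genes moved with the Kupffer cell markers given above, and the part of Kupffer cells in them was not tested.

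Among 21 other scavenger and lectin receptors, 17 were tested and Olr1 had 0 counts. Of the 17, 4 were lower and 1 higher, against 7.28% and 7.89% of all genes tested. Their median log2 fold change was -0.27. Cd68 (-1.36), Clec4f (-0.72) and Clec1b (-1.13) were lower and are read in Kupffer cells, and Cd68 and Clec4f are also on the Kupffer list. Lrp1, an endocytic receptor of hepatocytes and other cells, was lower with overlapping groups (110 ± 15 against 82.3 ± 13 CPM, log2 fold change -0.40, adjusted p = 0.0044). Marco, a macrophage scavenger receptor, rose from 19.6 ± 1.5 to 30.4 ± 2.2 CPM (log2 fold change 0.66, adjusted p = 0.00011). The hepatocyte receptors Asgr1 (0.03) and Asgr2 (-0.05) and the fatty acid transporter Cd36 (-0.14) did not pass the test.

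Of 5 chemokines and receptors linked to Gpr182, 3 were tested. Cxcl13, which draws B cells, held 2.25, 1.98 and 1.95 CPM in DIO and 8.33, 7.71, 7.14, 8.90 and 10.7 CPM in DIO + DHA (log2 fold change 2.10, SE 0.28, adjusted p = 4.4e-08). Cxcl10, an interferon-induced chemokine, was at 2.12 ± 0.48 and 0.644 ± 0.23 CPM (log2 fold change -1.72, adjusted p = 0.0135), and its call was lost without DIO replicate 4 (adjusted p = 0.154). It passed the filter only through DIO, the group where it was higher. Cxcl12, abundant at 227 ± 13 and 225 ± 14 CPM, had a log2 fold change of -0.01 (adjusted p = 0.936). Ackr3 and Cxcr4 were too low to test, with 12 and 4 counts.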

How the data were processed

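RNA from the liver of 8 mice was measured with an adapted SCRB-seq protocol, in which poly(T) primers carry a sample barcode and a molecular identifier. According to the study's methods and the file headers, the authors checked reads with FastQC, trimmed them with trimmomatic, aligned them with STAR to GRCm39 and counted them per gene with featureCounts on GENCODE annotation; collapsing of molecular identifiers is not given in the sources used here. The deposited values are raw counts for 56884 genes a library. No strand, multi-mapping or overlap option was set in the counting commands, so reads of overlapping genes on opposite strands cannot be told apart. Names came from GENCODE mouse release 39 (56323 identifiers matched).

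Totals were 1723800 to 5690347 counts in DIO, where replicate 1 was the shallowest, and 2846357 to 5080759 in DIO + DHA. As in the study, a gene was dropped when over 50% of each group's libraries had fewer than 5 counts of it. The remaining 12412 genes were fitted in R 4.3.3 with edgeR 4.0.16 (TMM scaling, robust quasi-likelihood test, Benjamini-Hochberg adjustment over all genes), and intervals are 95%. Of these genes, 1883 (15.2%) were called, and 2286 (18.4%) did not overlap between groups. The fit was tested on simulated data. Alternatives used DESeq2 1.42.0, limma 3.58.1, other scalings and filters, the replicate number as a block, and each library left out. Ratios to Stab2 were taken within a library and tested by exact permutation. Listed genes with 0 to 3 counts in DIO were given as ratios of summed counts. Exact counting intervals cover counting error only. Each library is 1 mouse.

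Members and gene lists were chosen with earlier results of these data known. Named genes are all members and, in each other list, the called genes, up to the 5 with the highest mean CPM, the 3 genes with the highest mean CPM whatever their p, and markers at 0 counts throughout. Genes named beyond that rule, such as Gata4, Wnt2, Thbd, Tek and those too low to test, were chosen after their values were seen.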

Additional observations from a re-analysis of the deposited data

Results flagged for a closer look

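In 3 of 37 groups of 5 values examined, 1 library lay far from the other 4, where chance gives about 1 in 20 groups. The Pecam1 level of DIO + DHA replicate 1 was 4.76 CPM, below the 6.33 to 6.79 CPM of the others. The summed Kupffer cell markers of DIO + DHA replicate 6 stood at 563 CPM, above the others (534 to 538 CPM). The log2 ratio of Clec4g to Stab2 was 1.04 in DIO + DHA replicate 1 and 0.53 to 0.67 in the others, and that library had the lowest Stab2 level of the 8.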

How the results depend on the processing

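Lyve1, Clec4g and Ehd3 kept their calls under all 18 alternatives. Over all genes, limma-voom with log odds above 0 called 463 higher and 397 lower, and DESeq2 called 601 lower. With log odds above 0, 1 of the other sinusoidal genes was lower. In the capillarization list, genes called lower numbered 0 with DESeq2, 0 with log odds above 0 and 1 to 3 with a library left out, and genes called higher numbered 1 with DESeq2, either limma-voom rule or no filter, 0 with edgeR's own filter or at least 10 counts in every library, and 1 to 2 with a library left out. In the list around Kdr, lower calls numbered 1 with DESeq2 and with each filter setting, 0 with log odds above 0 and 1 to 3 with a library left out. Of the chemokines linked to Gpr182, lower calls numbered 0 with DESeq2, log odds above 0, edgeR's filter or at least 10 counts, and 0 to 1 with a library left out, and higher calls 0 with at least 10 counts, a setting that also drops Pecam1. The cause was not tested, except that stricter filters test fewer genes. With a library left out, log2 fold changes crossed 0 for Pecam1 (-0.11 to 0.28), Kdr (-0.0055 to 0.10), Ptprb (-0.22 to 0.031), Fcgrt (-0.028 to 0.028), Asgr2 (-0.11 to 0.035) and Cxcl12 (-0.050 to 0.038), and ratios to Stab2 did so for Stab1, Oit3 and Gpr182 (-0.015 to 0.39, -0.18 to 0.091 and -0.19 to 0.094).

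Replicate numbers 1, 4 and 5 occur in both groups, and same-numbered libraries did not deviate together (correlations -0.0133, -0.0135 and -0.0112). Pairs with different numbers gave -0.059 to 0.062. These values cannot show whether same-numbered libraries share more than the number. With that number as a replicate block, 4 members were lower, Stab2 joining at an adjusted p of 0.0302 by edgeR, and 817 genes were higher and 721 lower over all. In that fit the capillarization list had 1 lower and 1 higher, the list around Kdr 1 lower, the chemokine list 0 lower, the Fc receptors 3 lower without Fcgr1 (adjusted p = 0.0526) and the stellate markers 1 lower. Egfl7 (-0.018), Fcgrt (0.0076) and the ratios of Oit3 (0.20) and Gpr182 (0.20) to Stab2 changed sign. Depth limits Pecam1, Kit, Cav1, Ly6c1, Angpt2, Cxcl10 and many of the general endothelial genes, which rest on few counts.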

Other observations

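Other cells of the sinusoid were read as well. Of 11 stellate cell markers, 3 were lower in DIO + DHA, among them Lrat, which stores vitamin A as esters, at 9.60 ± 2.1 CPM in DIO and 4.62 ± 1.6 CPM in DIO + DHA (log2 fold change -1.03, adjusted p = 0.0018 by edgeR), with Rgs5 (-0.45) and Colec11 (-0.28). That count was 1 with DESeq2, under limma-voom's log odds, and without DIO replicate 4, DIO + DHA replicate 1 or DIO + DHA replicate 5. The 1 that rose was Des, a muscle filament gene that skeletal muscle also carries, from 1.52 ± 0.57 to 16.9 ± 5.1 CPM. Over all genes tested, 7.28% were called lower and 7.89% higher. The 11 stellate markers summed to 335 to 344 CPM in DIO and 293 to 319 CPM in DIO + DHA. Of the lymphatic markers, Ccl21a had 2 counts in DIO and 33 in DIO + DHA, a ratio of 10.9 with a 95% counting interval of 2.78 to 93.5, and Prox1, which hepatocytes also express, had a log2 fold change of 0.02. Hepatocyte markers summed to 80140 to 85474 CPM in DIO and 83158 to 97329 CPM in DIO + DHA, and markers of blood cells gave 0 calls among 7 tested by edgeR, DESeq2 or limma-voom, with 1 at an unadjusted p under 0.05. These genes were chosen for naming after their values were seen.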
